A study of Mus musculus with 104 samples.

Results

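The lungs compared were those of mice taken 48 h after exposure to phosgene and those of the air controls of the same time. They are 7 of the 52 numbered lungs of the series, 3 labelled CG (phosgene) and 4 labelled Air, and they account for 14 of the 104 chips. A lung belonged to a group by its label, and the 2 chips that carry the same lung number were averaged. The series measured messenger RNA of whole mouse lung on expression microarrays at 8 times after phosgene or air and in 3 untreated lungs. The labels write 48 with no unit and 32 mg for the phosgene, so that hours, and a concentration in air, rest on knowledge of the study. No strain, age, sex or genotype is given in the labels, no transgene or other treatment is named, and nothing in them ties a lung number to a separate animal. The p values therefore measure the spread between lung numbers, which could be technical. The phosgene lungs are numbered 40, 41 and 42 and are called phosgene lungs 1 to 3. The air lungs are numbered 139, 142, 156 and 157 and are called air lungs 1 to 4.

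Phosgene is a reactive gas that acylates amino, hydroxyl and thiol groups of proteins and lipids where it meets the lining of the deep lung. The injury opens the barrier between capillary and alveolus, so that fluid and plasma protein enter the air space hours after exposure. In rodents, the days after such an injury are a time of inflammatory cell entry, clearance of debris and division of epithelial, endothelial and other cells that replace those lost.

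The lungs carried the defining transcripts of lung tissue. Sftpc, the surfactant protein made by alveolar type 2 cells, measured 5824, 4819 and 6719 intensity units in phosgene lungs 1 to 3 and 6096, 6055, 6491 and 5519 in air lungs 1 to 4 (adjusted p = 0.886). The 2 chips of a lung correlated at 0.970 to 0.984 across genes on the log2 scale, and the chip medians ran from 70.1 to 82.1. Air lungs 3 and 4 stood apart from air lungs 1 and 2 in heat shock genes, which encode chaperones for damaged protein. Hspa1b, an inducible 70-kilodalton chaperone, measured 193 and 296 in air lungs 1 and 2 and 739.8 and 743 in air lungs 3 and 4. Of 19 heat shock and folding genes, 14 were brighter in both of the latter lungs than in both of the former, and the same held for 21.4% of all genes.

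Phosgene lungs differed from air lungs in 674 of 12393 genes at 48 h (5.44%), of which 345 were higher (2.78%) and 329 lower (2.65%), by limma with Benjamini-Hochberg adjustment at an adjusted p under 0.05. The test used log2 of the intensity plus 16, which understates the change of dim genes, and folds below are on that scale. The rises were larger than the falls: 85 of the higher genes rose by more than 1 on the log2 scale and 20 of the lower genes fell by more than 1. The median log2 change over all genes was -0.02. In 649 of the called genes the 3 phosgene lungs lay beyond all 4 air lungs, an arrangement found in 16.7% of all genes measured. A permutation test of 3 lungs against 4 cannot give a 2-sided p below 0.0571, so the tests rest on the spread shared over all 52 lungs. These are bulk tissue levels, in which fewer cells of a type and less RNA per cell cannot be told apart.

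The number of calls depended on single lungs. Without phosgene lung 1 there were 210 higher and 208 lower genes, and without phosgene lung 3 there were 223 and 169. Calls that held whichever of the 7 lungs was left out numbered 161 higher and 96 lower. Phosgene and air chips of 48 h shared hybridization days 3, 5 and 7, and within these days 342, 340 and 339 of the 345 higher genes had a positive difference, and 320, 327 and 328 of the 329 lower genes a negative one. Each day held 1 phosgene chip and 1 or 2 air chips, and these chips also entered the calls. Days 5 and 7 compared the same lungs, phosgene lung 2 with air lungs 3 and 4. The other chip of phosgene lung 1 was hybridized on day 9 and those of phosgene lung 3 on days 9 and 4. No air chip of 48 h with a known day lay on these days, and the chips of day 9 were of lot 3, which held none either.

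The largest rise was in Lrg1, a secreted leucine-rich glycoprotein of the acute phase. It measured 1774, 1486 and 2074 in phosgene lungs 1 to 3 and 335, 319, 237 and 165 in air lungs 1 to 4, a 6.55-fold rise (log2 change 2.71, SE 0.27, adjusted p = 7.95e-09). The lowest phosgene lung lay far above the highest air lung. Retnla, a secreted resistin-like protein of alternatively activated macrophages and airway epithelium in mice, measured 3809, 3241 and 3803 against 394, 367, 1825 and 429 (log2 change 2.60, SE 0.42, adjusted p = 7.48e-05). Air lung 3 stood well above the other air lungs and still below every phosgene lung. Timp1, an inhibitor of matrix metalloproteinases, measured 745, 359 and 639.8 against 109.5, 92.7, 76.2 and 70.8 (log2 change 2.49, SE 0.25, adjusted p = 9.85e-09). Phosgene lung 2 was the lowest of its group and the groups did not overlap. Clu, a secreted chaperone, measured 1895, 2107 and 2233 against 419.6, 488, 409.8 and 474 (log2 change 2.18, SE 0.23, adjusted p = 3.40e-08), with little spread in either group.

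**Figure D1:**
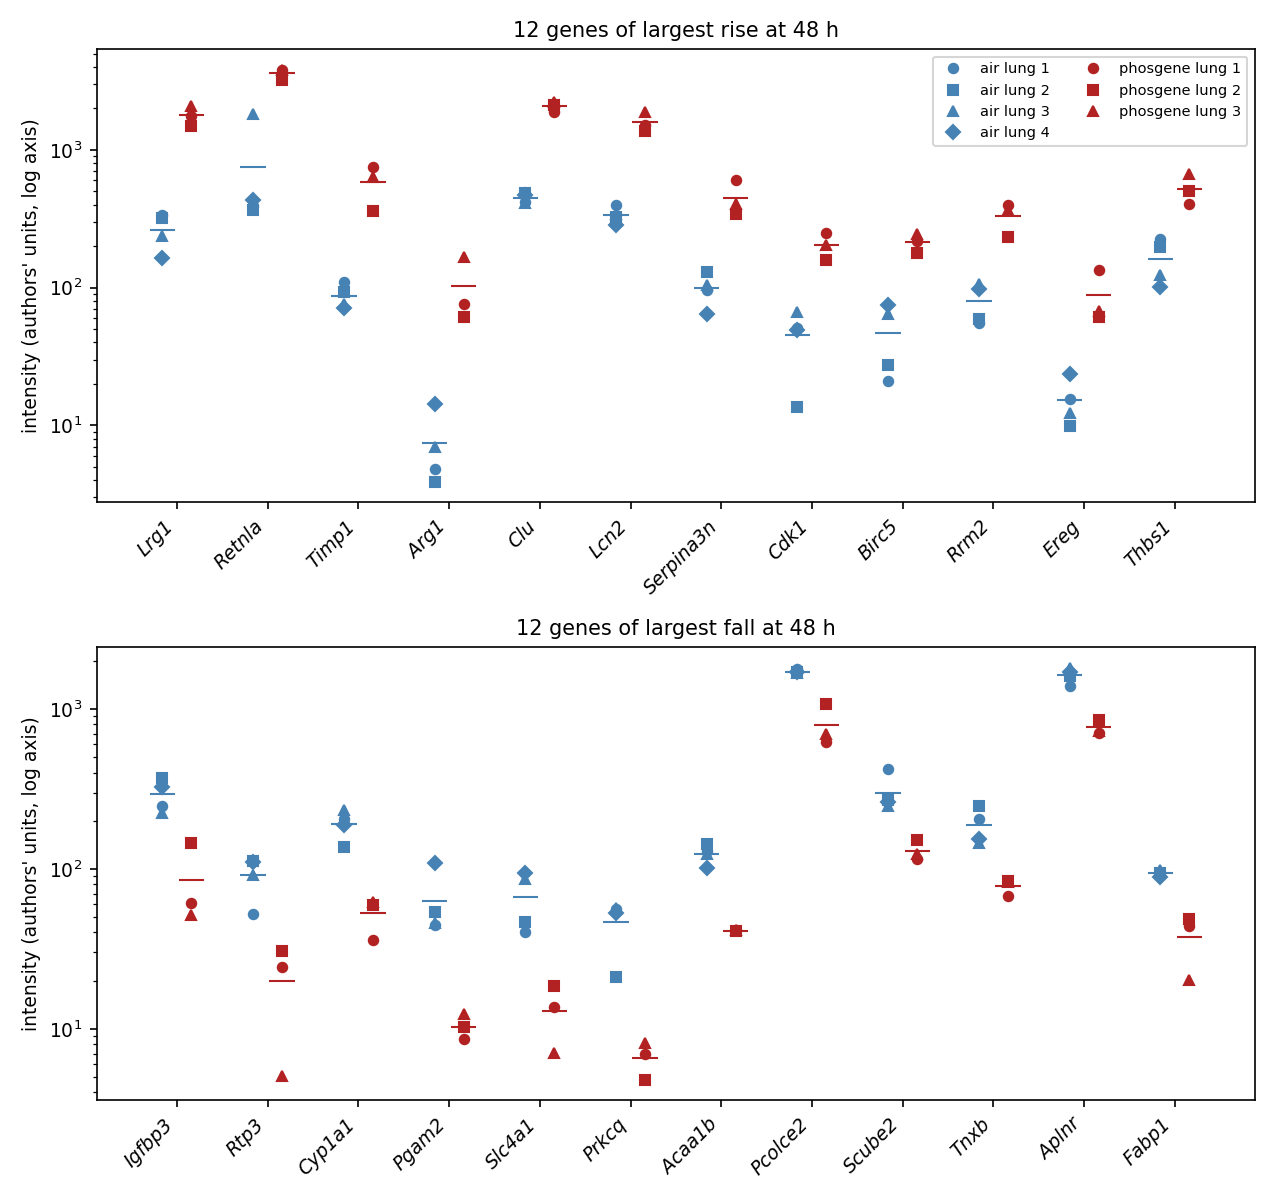
Intensity (authors' units, log axis) of the 12 genes of largest rise and the 12 of largest fall at 48 h whose groups did not overlap, with 1 symbol per lung and a line at the arithmetic mean of each group (3 phosgene lungs in red, 4 air lungs in blue). Retnla in air lung 3, at 1825, lies well above the other air lungs and below all phosgene lungs.

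Acute phase and complement genes, which encode secreted proteins of the early response to injury and of opsonisation, rose in 10 and fell in 1 of 20 measured members, with a median log2 change of 0.50. Without each lung in turn 7 to 9 rose, 6 of the rises held whichever lung was left out, and over all alternatives 5 to 11 rose. Lcn2, which binds bacterial siderophores, measured 1513, 1364 and 1891 in phosgene lungs and 395, 327, 345 and 285 in air lungs (log2 change 2.18, SE 0.22, adjusted p = 7.95e-09). Serpina3n, a serine protease inhibitor, measured 604, 342 and 403 against 96.5, 129, 105 and 64.8 (log2 change 2.05, SE 0.31, adjusted p = 1.93e-05). For both genes every phosgene lung lay far above every air lung. Orm1, an acid glycoprotein of plasma, was dim, at 34.0, 22.7 and 41.8 against 6.1, 2.8, 2.8 and 1.5 (log2 change 1.30, adjusted p = 1.79e-05). C3ar1, the receptor for the anaphylatoxin C3a, rose by 0.83 on the log2 scale, and C1qa and C1qc, chains of the complement recognition protein made by macrophages, rose by 0.60 and 0.46. The call of C1qa was kept in 3 of the 7 fits that left out a lung. The member that fell was C2, a protease of the classical pathway, at 80.2, 73.2 and 101 against 125, 139, 158 and 170.4 (log2 change -0.70, SE 0.15, adjusted p = 0.00269).

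Among genes of interleukin 1, interleukin 6 and STAT3 signalling 4 of 19 rose and 0 fell, and 2 rose without air lung 2 or phosgene lung 1. Socs3, the feedback inhibitor that STAT3 induces, measured 546, 325 and 343 against 122, 103, 140.1 and 118 (log2 change 1.60, SE 0.23, adjusted p = 1.03e-05). Phosgene lung 1 was the highest and all 3 lay above the air lungs. Cebpd, a transcription factor of the acute phase response, rose by 1.25 on the log2 scale (adjusted p = 1.64e-05). Cebpd also counts among the glucocorticoid-induced genes, of which 7 of 18 rose and 0 fell, with Lcn2, Mt2, Errfi1 and Per1 among them. Without each lung in turn 5 to 6 of this list rose. Fkbp5, another of the 7, kept its call in 0 of the 7 fits that left out a lung. Mt2, a metal-binding metallothionein, measured 1218, 725 and 509 against 213, 364, 234 and 330.2 (log2 change 1.41, SE 0.27, adjusted p = 5.64e-04). Per1, a clock gene with a glucocorticoid response element, measured 246, 204 and 191 against 62.8, 138, 76.7 and 54.9 (log2 change 1.27, SE 0.23, adjusted p = 2.78e-04), and air lung 2 was the highest air lung.

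Genes that mark injured and repairing epithelium rose in 13 of 17 measured members, none fell, and the median log2 change was 0.87. Krt8 and Krt18 encode the partner keratins of simple epithelium. Krt8 measured 1387, 1031 and 1421 in phosgene lungs and 503, 583, 538 and 570.4 in air lungs (log2 change 1.19, SE 0.15, adjusted p = 5.65e-07). Krt18 measured 967, 842 and 1188 against 398, 378, 389 and 389.6 (log2 change 1.31, SE 0.16, adjusted p = 3.94e-07). Phosgene lung 2 was the lowest of its group for both keratins and stayed above all air lungs. Cldn4, a sealing claudin of tight junctions, measured 143, 144 and 271 against 63.8, 78.2, 59.2 and 58.0 (log2 change 1.27, SE 0.16, adjusted p = 8.33e-07). Ereg, a ligand of the epidermal growth factor receptor, measured 134, 61.1 and 67.5 against 15.6, 9.9, 12.2 and 23.5 (log2 change 1.68, SE 0.22, adjusted p = 1.16e-06). Phosgene lung 3 was the highest for Cldn4 and phosgene lung 1 for Ereg. Sfn, a 14-3-3 protein of epithelia, rose by 1.37 and Fst, which binds activin, by 1.51.

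Of 15 alveolar type 2 markers 3 rose and 0 fell (median log2 change 0.22), with 1 higher without phosgene lung 3, and Sftpa1 and Sftpb, surfactant proteins, had log2 changes of 0.22 and 0.36 that did not pass (adjusted p = 0.445 and 0.115). Of 11 alveolar type 1 markers 1 rose and 1 fell. The one that rose, Krt7, a keratin of simple epithelium, is also in the injured epithelium list, and the one that fell, Vegfa, encodes the growth factor of endothelium and was not called without air lung 1, 2 or 3 or phosgene lung 1 or 3. The lowest change of the list was that of Igfbp2, a carrier of insulin-like growth factors given although chosen after its values were seen, at 157, 302 and 655 against 868, 975, 692 and 399 (log2 change -1.10, SE 0.40, adjusted p = 0.108). Its groups overlapped, with phosgene lung 3 above air lung 4. Aqp5, a water channel, measured 771, 992 and 872 against 728, 829, 828 and 762 (adjusted p = 0.602).

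Genes of alternatively activated macrophages rose in 5 of 15 members (3 without phosgene lung 3) and those of macrophage lysosomes and clearance in 8 of 27, where 1 fell. Arg1, the arginase that turns arginine into ornithine, measured 76.3, 61.6 and 168 in phosgene lungs and 4.8, 3.9, 7.0 and 14.4 in air lungs (log2 change 2.25, SE 0.31, adjusted p = 6.49e-06). Phosgene lung 3 was the highest and the gene was dim in every air lung. Ctsd, a lysosomal protease, measured 1534, 1764 and 1863 against 1083, 1057, 844 and 876 (log2 change 0.82, SE 0.14, adjusted p = 1.05e-04). Cd68, a lysosomal glycoprotein of macrophages, measured 259.5, 341 and 232 against 165, 138, 124 and 153 (log2 change 0.86, SE 0.16, adjusted p = 6.22e-04). Neither gene's groups overlapped. Gpnmb, a glycoprotein of phagocytes, rose by 1.24 (SE 0.29) with phosgene lung 2 at 289 and phosgene lung 3 at 96.9. The member that fell, Gas6, a bridging ligand for apoptotic cells, measured 708, 828 and 701 against 1061, 1343, 1218 and 1131 (log2 change -0.66, adjusted p = 4.18e-04). The alternative activation gene Chil3, a chitinase-like lectin, measured 2066, 2219.7 and 1212 against 1412, 1202, 1056 and 1077, with overlapping groups (adjusted p = 0.508).

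Markers of the macrophages themselves moved in both directions. Of 17 alveolar and tissue macrophage markers 3 rose and 1 fell, and their summed intensity was 4960 to 6284 in phosgene lungs and 4576 to 5106 in air lungs. The one that fell was Fabp1, a fatty acid binding protein, at 44.2, 48.8 and 20.2 against 95.5, 94.1, 97.8 and 88.3 (log2 change -1.07, SE 0.18, adjusted p = 1.05e-04). Neutrophil markers rose in 1 of 17 members (2 without air lung 2), Lcn2, which other cells of the lung also make. Of these 17 markers 16 had a positive change, with a median log2 change of 0.45, and 8 had an unadjusted p under 0.05 by limma, against 17.3% of all genes. Their summed intensity was 3322 to 3848 against 1390 to 1902, and Lcn2 made up 1364 to 1891 of the former and 285 to 395 of the latter. S100a8, a calcium-binding protein abundant in neutrophils, measured 447, 419 and 480.4 against 314, 102, 249.6 and 183 (log2 change 1.13, SE 0.49, adjusted p = 0.200). Its groups did not overlap, but the spread over the series was too large for the change to pass. No marker of T and NK cells (20 measured) or of B cells (11 measured) was called by limma, with 1 and 4 at an unadjusted p under 0.05, a mark that 17.3% of all genes passed. No member of any list had an intensity of 0 in the 7 lungs, and the part that changes in cell number had in any of these results was not tested. Chemokine genes rose in 5 and fell in 1 of 24 members, with 2 higher without air lung 4 and 3 without air lung 2 or phosgene lung 1 or 3, and 0 lower without air lung 1, 2 or 4 or phosgene lung 2 or 3. Those that rose include Ccl2, which draws monocytes, at 64.2, 42.6 and 51.7 against 23.2, 18.2, 7.2 and 24.1 (log2 change 1.06, adjusted p = 0.00173).

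Cell division genes rose together at 48 h. Of 30 measured mitosis genes 24 rose, 0 fell and all 30 had a positive change, with a median log2 change of 0.97, where the median over all genes was -0.02. Of 29 DNA replication genes 15 rose, 0 fell and all 29 were positive, with a median of 0.51. Without each lung in turn 19 to 26 mitosis genes and 10 to 14 replication genes were higher. With only air lungs 3 and 4 as controls 13 mitosis genes were higher, and over all alternatives the range was 13 to 26 mitosis genes and 6 to 19 replication genes, with 6 of the latter against untreated lungs and 8 with chip B alone. The summed intensity of the mitosis genes was 4328, 3382 and 3986 in phosgene lungs 1 to 3 and 1447, 1234, 2026 and 1810 in air lungs 1 to 4, so that air lungs 3 and 4 were the higher air lungs and all phosgene lungs lay above them.

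Cdk1, the kinase that drives entry into mitosis, measured 251, 159.9 and 203 in phosgene lungs and 50.6, 13.6, 66.4 and 49.4 in air lungs (log2 change 1.97, SE 0.36, adjusted p = 3.18e-04). Air lung 2 was the lowest and phosgene lung 1 the highest. Ccnb2, a cyclin partner of Cdk1, measured 142, 116 and 126 against 48.4, 23.7, 63.1 and 59.4 (log2 change 1.21, SE 0.27, adjusted p = 0.00269). Cdc20, an activator of the ubiquitin ligase that ends metaphase, measured 316, 262 and 304 against 82.0, 72.3, 127 and 102 (log2 change 1.49, SE 0.22, adjusted p = 1.76e-05). In both genes the lowest phosgene lung was phosgene lung 2, and it lay above the highest air lung. Mad2l1 and Bub1b belong to the checkpoint that restrains Cdc20. Mad2l1 measured 182, 150 and 159 against 47.9, 31.1, 47.6 and 48.4 (log2 change 1.61, SE 0.24, adjusted p = 1.79e-05). Bub1b measured 84.4, 55.1 and 40.6 against 8.5, 5.0, 9.2 and 11.7 (log2 change 1.57, SE 0.19, adjusted p = 2.99e-07). Phosgene lung 1 was the highest for both checkpoint genes.

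Birc5, survivin of the chromosomal passenger complex, measured 218, 178 and 244 against 21.0, 27.6, 64.3 and 74.8 (log2 change 1.96, SE 0.32, adjusted p = 7.48e-05). Mki67, the nuclear protein used as a mark of cycling cells, measured 212, 170.2 and 214 against 43.5, 43.3, 84.8 and 102 (log2 change 1.42, SE 0.29, adjusted p = 0.00131). Air lungs 3 and 4 were brighter than air lungs 1 and 2 for both genes, and dimmer than every phosgene lung. Aurka and Aurkb, the Aurora kinases of the spindle pole and of the passenger complex, rose by 0.98 (SE 0.16) and 0.67 (SE 0.14). Among replication genes Rrm2, the small subunit of ribonucleotide reductase, measured 397, 232 and 369 against 54.9, 59.2, 106 and 97.3 (log2 change 1.88, SE 0.21, adjusted p = 5.85e-08). Mcm5, a subunit of the replicative helicase, measured 155, 97.5 and 133 against 43.8, 46.0, 55.2 and 40.5 (log2 change 1.20, SE 0.18, adjusted p = 1.23e-05). Phosgene lung 2 was the lowest of its group for both and lay above the air lungs. Pcna, the sliding clamp of the polymerase, had a smaller change, at 1098, 1140.2 and 1098 against 747, 564, 744 and 799.6 (log2 change 0.64, adjusted p = 0.00251).

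**Figure D2:**
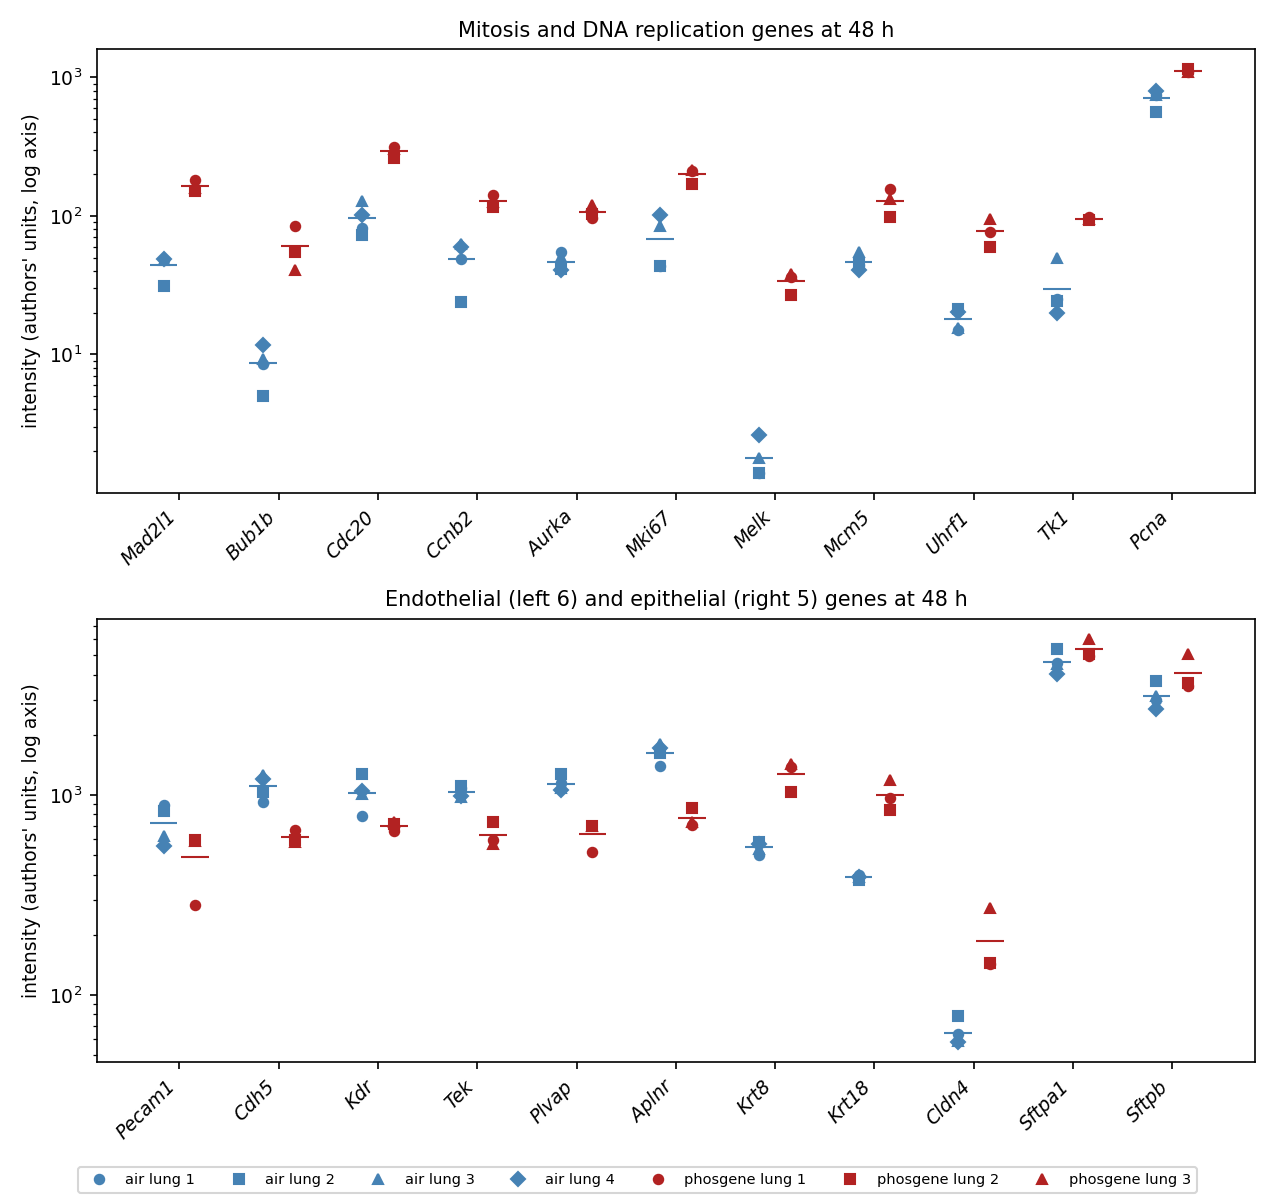
Intensity (authors' units, log axis) of 11 mitosis and DNA replication genes and, below, of 6 endothelial and 5 epithelial genes at 48 h, with 1 symbol per lung and a line at the arithmetic mean of the 3 phosgene lungs (red) and the 4 air lungs (blue). The phosgene lungs lie above all air lungs for each gene of the upper panel, and below all air lungs for Cdh5, Kdr, Tek, Plvap and Aplnr.

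The sequences just upstream of 4 mitosis genes and 1 replication gene are shown as examples of the promoters of both lists. Each is the 140 bases before the gene's start in RefSeq's annotation of GRCm38.p6, read 5′ to 3′ on the gene's strand, with 2 motifs in capitals wherever they occur on either strand. One is TTTGAA, written TTCAAA when it lies on the opposite strand, the core of the cell cycle homology region bound by the MuvB complex of late cell cycle promoters. The other is CCAAT, written ATTGG when it lies on the opposite strand, the box bound by NF-Y. The Cdk1 window is chr10:69352913-69353052, that of Ccnb2 chr9:70421555-70421694, that of Cdc20 chr4:118437344-118437483 and that of Aurka chr2:172370571-172370710, all on the minus strand, and that of Rrm2 is chr12:24708114-24708253 on the plus strand.
Cdk1: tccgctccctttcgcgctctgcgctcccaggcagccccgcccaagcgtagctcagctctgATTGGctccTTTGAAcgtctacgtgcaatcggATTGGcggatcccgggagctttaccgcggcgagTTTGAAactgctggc
Ccnb2: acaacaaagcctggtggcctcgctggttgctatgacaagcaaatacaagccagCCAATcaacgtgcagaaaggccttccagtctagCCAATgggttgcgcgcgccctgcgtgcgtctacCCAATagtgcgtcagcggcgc
Cdc20: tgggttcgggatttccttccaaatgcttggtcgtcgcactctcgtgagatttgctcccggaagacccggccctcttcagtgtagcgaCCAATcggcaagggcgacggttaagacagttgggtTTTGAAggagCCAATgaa
Aurka: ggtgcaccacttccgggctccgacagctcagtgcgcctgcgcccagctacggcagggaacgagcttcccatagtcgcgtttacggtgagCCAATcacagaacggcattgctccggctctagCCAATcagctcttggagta
Rrm2: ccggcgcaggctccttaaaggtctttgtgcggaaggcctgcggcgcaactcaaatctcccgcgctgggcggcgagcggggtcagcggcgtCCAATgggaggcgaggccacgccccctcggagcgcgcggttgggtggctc

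The Cdk1 window holds TTTGAA 2 times and CCAAT 2 times, that of Cdc20 holds them 1 and 2 times, and those of Ccnb2 and Aurka hold CCAAT 3 and 2 times and TTTGAA 0 times. The wider windows used next, which run to 50 bases after the start, hold TTTGAA 2 times for Ccnb2 and 1 time for Aurka. The Rrm2 window holds 1 CCAAT and 0 TTTGAA. Over the windows of 250 bases before to 50 after the start, which were at hand for 9887 of the 12393 genes, TTTGAA occurred in 14 of the 20 mitosis genes that rose and have a window (70.0%), in 1 of 12 replication genes that rose (8.33%) and in 1283 of all 9887 windows. Over the whole mitosis list it occurred in 20 of 26 windows (76.9%), so that the 6 mitosis genes with a window that were not called all hold it. CCAAT occurred in 80.0%, 58.3% and 38.1% of the same 3 sets. Both motifs together occurred in 13 of the 20 mitosis genes (65.0%) and in 5.16% of all windows. Among all genes higher at 48 h 19.0% of 273 windows held TTTGAA, and among the lower genes 8.33% of 252 did. These are matches of letters in one window per gene, and the 20 genes were listed for their known role in mitosis.

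The largest falls were of 12 genes with varied roles. Igfbp3, a carrier of insulin-like growth factors, measured 60.9, 144 and 51.4 in phosgene lungs and 248, 372, 222 and 325 in air lungs (log2 change -1.68, SE 0.33, adjusted p = 7.66e-04). Phosgene lung 2 was the highest of its group and stayed below the air lungs. Cyp1a1, a monooxygenase induced by the aryl hydrocarbon receptor, measured 35.9, 59.8 and 62.3 against 205, 136, 233 and 188 (log2 change -1.60, SE 0.27, adjusted p = 1.05e-04). Acaa1b, a peroxisomal thiolase, measured 41.4, 40.8 and 41.2 against 129, 142, 124 and 101 (log2 change -1.29, SE 0.16, adjusted p = 9.12e-07). Neither of these overlapped, and the 3 phosgene values of Acaa1b were nearly equal. Pcolce2, an enhancer of procollagen processing, measured 619.9, 1072 and 698 against 1765, 1701, 1674 and 1695 (log2 change -1.12, SE 0.14, adjusted p = 8.33e-07), with phosgene lung 2 again the highest of its group. Rtp3, Pgam2, Prkcq, Scube2 and Tnxb, which encode a receptor transporter protein, a muscle glycolytic enzyme, a protein kinase C of T cells and muscle, a secreted signalling protein and a tenascin of the matrix, fell by 1.63, 1.52, 1.35, 1.09 and 1.09 on the log2 scale. In the list of lung cytochrome P450, flavin monooxygenase and carboxylesterase genes 4 of 19 fell and 0 rose (2 without phosgene lung 1 or 3), among them Fmo1, at 717, 837 and 666 against 1379, 1489, 1553 and 1646 (log2 change -1.03, SE 0.13, adjusted p = 9.12e-07).

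Of 28 measured endothelial markers 10 fell, 0 rose, 18 were not called and 26 had a negative change, with a median log2 change of -0.40. Their summed intensity was 15768 to 17744 in phosgene lungs and 23562 to 25065 in air lungs, without overlap. Aplnr, the apelin receptor, measured 708, 857 and 732 against 1389.5, 1617, 1805 and 1709 (log2 change -1.07, SE 0.18, adjusted p = 1.05e-04). Cdh5, the cadherin of endothelial junctions, measured 671, 593 and 582 against 922, 1041, 1266 and 1204 (log2 change -0.82, SE 0.18, adjusted p = 0.00274). Tek, the angiopoietin receptor, measured 594, 735 and 569 against 1082, 1104, 974 and 989.8 (log2 change -0.70, SE 0.10, adjusted p = 1.79e-05). In each of the 3 genes all phosgene lungs lay below all air lungs. Plvap, the diaphragm protein of fenestrae and caveolae, fell by 0.85 on the log2 scale, and Kdr, a receptor of vascular endothelial growth factor, by 0.52 (SE 0.16), a call that was kept in 1 of the 7 fits that left out a lung. Pecam1, an adhesion molecule of endothelium, measured 282, 598 and 587 against 895, 836, 621 and 556, with overlapping groups (adjusted p = 0.234). Vegfa, the ligand of Kdr, fell by 0.38 (SE 0.11, adjusted p = 0.0295). Without each lung in turn 6 to 9 endothelial markers were lower, with 6 without phosgene lung 1, and 5 calls held whichever lung was left out. Of 17 fibroblast and mesenchyme markers 2 fell and 0 rose, or 1 without air lung 3 or 4 or any of the phosgene lungs. Among them was Npnt, an integrin ligand of basement membrane, at 1729, 1860.3 and 1395 against 3246, 3069, 3351 and 3256 (log2 change -0.96, SE 0.11, adjusted p = 2.73e-07).

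Some transcripts of red cells and heart muscle, which reach a lung sample with blood and with the pulmonary veins or attached tissue, were lower. Of 9 red cell markers 4 fell, 0 rose and 3 had a positive change (median log2 change -0.64), and their summed intensity was 1452 to 1720 in phosgene lungs and 2065 to 2574 in air lungs. Slc4a1, the band 3 anion exchanger, measured 13.6, 18.4 and 7.1 against 40.1, 46.5, 85.8 and 94.8 (log2 change -1.48, SE 0.32, adjusted p = 0.00213). Alas2, the first enzyme of haem synthesis in red cell precursors, measured 352, 275 and 392 against 573, 644, 576 and 817 (log2 change -0.91, SE 0.19, adjusted p = 0.00191). Both genes were lower in every phosgene lung. The haemoglobin genes Hba-a1 and Hbb-b2 were not called, with log2 changes of -0.30 and -1.01 (adjusted p by limma 0.643 and 0.0957). The groups overlapped for Hba-a1 and not for Hbb-b2. Bpgm, another of the 4 that fell, had overlapping groups and kept its call in 4 of the 7 fits that left out a lung. The median change of the red cell markers was -0.02 within hybridization day 3 and -0.73 and -0.97 within days 5 and 7. Of 17 cardiac muscle markers 4 fell and 0 rose. Without phosgene lung 1 none was lower, 2 were without air lung 2, 3 or 4 or phosgene lung 3, and no cardiac call held whichever lung was left out. The part of blood content or of dissection in the falls was not tested.

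**Figure D3:**
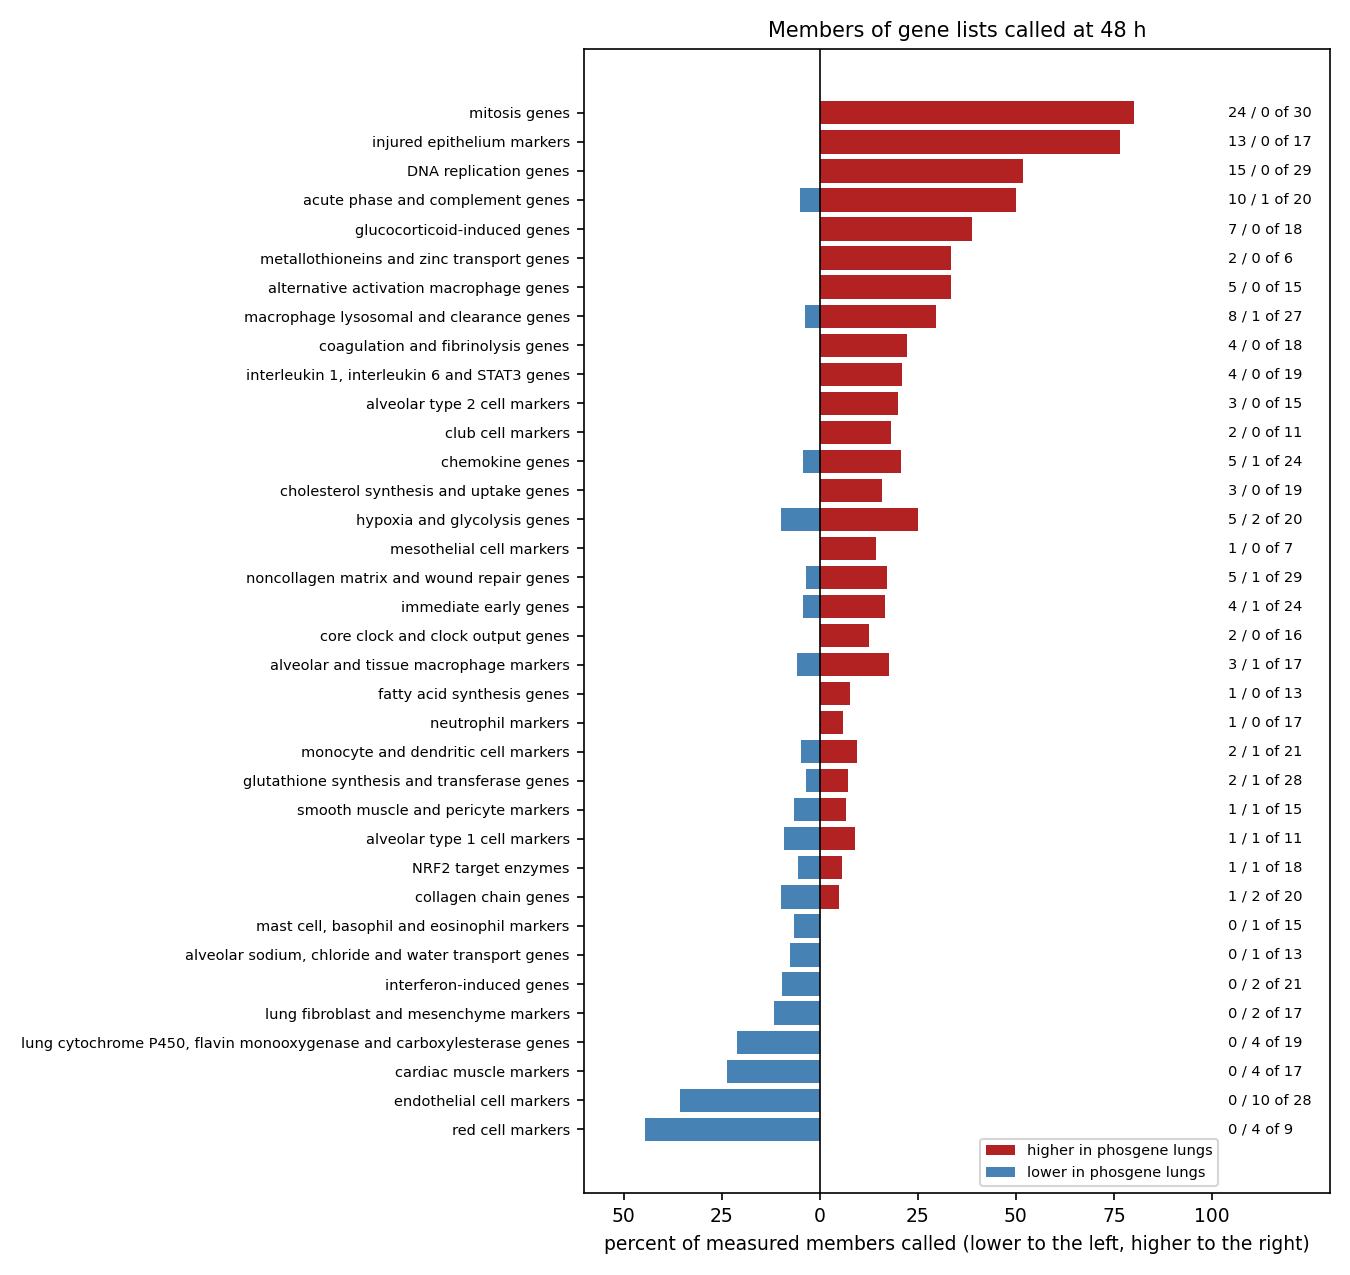
Percent of the measured members of each gene list that were called higher (red, to the right) or lower (blue, to the left) in phosgene lungs at 48 h, for the lists with at least 1 call, with the counts as higher / lower of measured at the right. Mitosis genes have the largest share of higher members, 24 of 30, and red cell markers the largest share of lower members, 4 of 9, against 2.78% and 2.65% of all genes.

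Other gene groups moved in part. Of 29 genes of noncollagen matrix and wound repair 5 rose and 1 fell (3 rose without phosgene lung 1, and none fell without air lung 1 or phosgene lung 2 or 3). They include Thbs1, a matrix glycoprotein that activates transforming growth factor beta, at 402, 499 and 669 against 225, 197, 124 and 101 (log2 change 1.64, SE 0.32, adjusted p = 7.81e-04), and Tnc, a tenascin of wounds, at 424, 289 and 552 against 88.5, 170.3, 219 and 195 (log2 change 1.26, SE 0.25, adjusted p = 0.00104). Of 20 collagen chain genes 1 rose and 2 fell, and none did without phosgene lung 3. None rose without air lung 1 or phosgene lung 1, 2 rose without phosgene lung 2, and 1 fell without air lung 1 or 3 or phosgene lung 1 or 2. Of 20 genes of hypoxia and glycolysis 5 rose and 2 fell. Without phosgene lung 1 or 3, 2 rose and 1 fell, without air lung 1, 3 rose and 1 fell, and without air lung 2 or 3, 4 rose and 1 fell. Ldha, lactate dehydrogenase, rose by 0.75 (adjusted p = 0.00112), and Pgk1, phosphoglycerate kinase, measured 2244, 1226 and 1765 against 800.1, 749, 991 and 1319.8, with phosgene lung 2 below air lung 4 (log2 change 0.85, adjusted p = 0.00987).

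The stress lists differed in their counts at 48 h. Of 24 immediate early genes 4 rose and 1 fell (median log2 change 0.27), with 7 higher without air lung 2 and 2 without phosgene lung 1, and 0 lower without air lung 3 or 4 or phosgene lung 1 or 3. Those that rose include Atf3, a stress-induced transcription factor, at 108, 73.2 and 81.0 in phosgene lungs and 24.4, 47.9, 16.6 and 28.9 in air lungs (log2 change 1.24, adjusted p = 0.00859). The phosgene lungs of Atf3 lay above all air lungs. Maff and Junb, partners in dimeric transcription factors, rose by 1.05 and 0.91. Of 6 genes of metallothioneins and zinc transport, Mt1 and Mt2 rose, Mt1 by 1.18, with 1 of them called without phosgene lung 1.

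No member of the heat shock and folding list (19 measured), the p53 target list (16), the list of endoplasmic reticulum stress and ATF4 targets (24) or the proteasome list (31) was called by limma. Without each lung in turn each of the first 3 lists had at most 1 call in a direction, and the proteasome list 0. At an unadjusted p under 0.05 there were 3, 2, 3 and 6 such members, where 17.3% of all genes (2149) passed that mark, and the medians of these lists were -0.15, 0.09, -0.15 and 0.18 on the log2 scale. A positive change was found in 6, 10, 7 and 29 of their members. Hspa1a, a near-identical copy of Hspa1b whose signal may mix with it, measured 352, 246 and 192 in phosgene lungs and 55.4, 66.5, 269 and 219 in air lungs (adjusted p = 0.157). The phosgene lungs lay above air lungs 1 and 2 and overlapped air lungs 3 and 4. Of 18 target enzymes of NRF2, the transcription factor of the electrophile response, 1 rose, 1 fell and 17 had a positive change (median 0.25), and without phosgene lung 1 or 3 none fell. Gclc, the catalytic subunit of glutathione synthesis, measured 858, 868 and 766 against 587, 491, 317 and 348 (log2 change 0.96, SE 0.21, adjusted p = 0.00238), and Ephx1, microsomal epoxide hydrolase, fell by 0.49 (adjusted p = 0.0110). Hmox1, the haem oxygenase that such stress induces, measured 97.2, 106 and 104 against 72.0, 71.3, 64.5 and 65.4, without overlap, and its change did not pass (log2 change 0.49, adjusted p = 0.394). Of 21 interferon-induced genes 2 fell and 0 rose, 19 had a negative change and the median log2 change was -0.23. At an unadjusted p under 0.05 by limma there were 8. Their summed intensity was 2963 to 3591 in phosgene lungs and 3742 to 4431 in air lungs. Without air lung 1, 4 fell, without air lung 2, 1 did, and without air lung 4 or phosgene lung 3, 0 did.

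**Figure D4:**
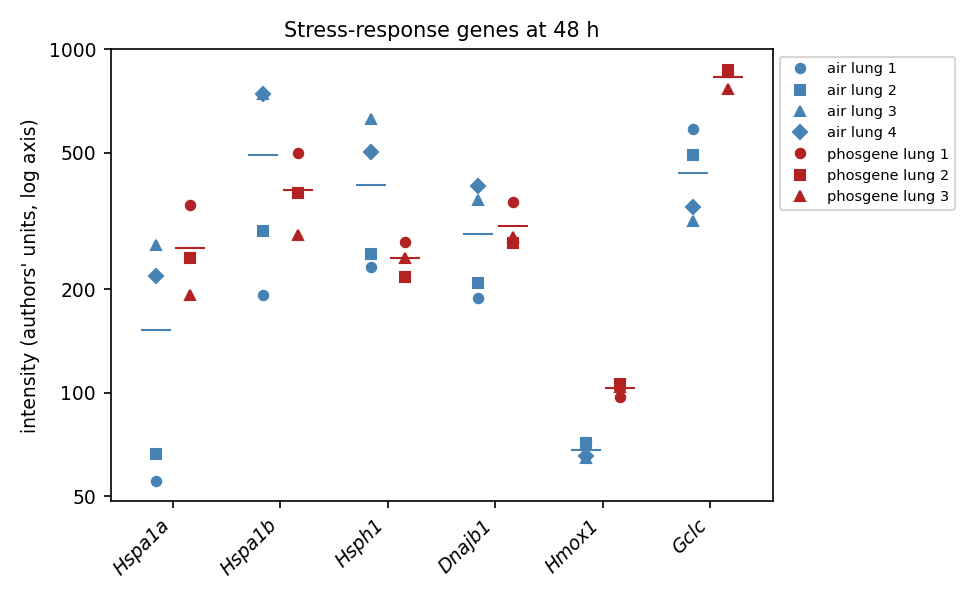
Intensity (authors' units, log axis) of 4 heat shock and folding genes, Hmox1 and Gclc at 48 h, with 1 symbol per lung and a line at the arithmetic mean of the 3 phosgene lungs (red) and the 4 air lungs (blue). For Hspa1b and Hsph1 air lungs 3 and 4 lie above all other lungs, and for Gclc all phosgene lungs lie above all air lungs.

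The 48 h difference was set against those of other times, each of which has its own air lungs. At 24 h 246 genes were called (1.98%) and at 72 h 501 (4.04%). Of the 674 genes called at 48 h, 129 were called in the same direction at 24 h, which is 19.1% of the 48 h calls and 52.4% of the 24 h calls. The number shared with 72 h was 290, which is 43.0% of the 48 h calls and 57.9% of the 72 h calls. No gene was called in opposite directions at 48 h and either neighbour.

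A test of the difference between the 48 h and 24 h effects called 4 genes (0.0323%), with 678 at an unadjusted p under 0.05. Melk, a kinase expressed in dividing cells, measured 36.4, 26.6 and 38.0 in the phosgene lungs of 48 h and 1.4, 1.4, 1.8 and 2.6 in the air lungs. Its effect was 1.46 at 48 h and 0.01 at 24 h on the log2 scale, a difference of 1.44 (SE 0.23, adjusted p = 0.00319). The effect of Bub1b was larger at 48 h by 1.48 and that of Aurka by 1.22 (adjusted p = 0.0162 for both). Art3, a member of the ADP-ribosyltransferase family, went the other way, with an effect of -0.94 at 48 h and 0.48 at 24 h (difference -1.43, adjusted p = 0.0162). Between 48 h and 72 h the limma test called 0 genes (0%), with 292 at an unadjusted p under 0.05 and a smallest adjusted p of 0.605.

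Against the mean effect of the other 7 times, the 48 h effect was higher in 98 genes (0.791%) and lower in 66 (0.533%). Of the 98, 97 were also called higher at 48 h, and 20 were mitosis genes and 9 DNA replication genes. The median effect of the mitosis genes was 0.12 at 24 h, 0.97 at 48 h and 0.67 at 72 h, and 0, 24 and 16 of them were called higher at these times. The median of the DNA replication genes was 0.12, 0.51 and 0.50, and 0, 15 and 11 of them were called higher. Over all 12393 genes 130, 345 and 267 were called higher at 24, 48 and 72 h. Cep55, which acts in the final separation of daughter cells, measured 182, 167 and 141 against 32.5, 31.7, 64.4 and 72.2 at 48 h, and its effect exceeded the mean of the other times by 1.44 (SE 0.28, adjusted p = 0.00299). Uhrf1, which maintains DNA methylation at replication, measured 76.5, 59.7 and 95.5 against 15.1, 21.4, 15.6 and 20.1 and exceeded that mean by 1.20 (SE 0.24, adjusted p = 0.00305). In both genes the phosgene lungs lay above all air lungs. Among acute phase and complement genes 5 had a higher effect at 48 h than over the other times, among them Lrg1, by 1.48, and Lcn2, by 1.38. Among macrophage lysosomal genes 4 did, with Cd68 by 0.77 and Ctsd by 0.67. The effects of Cd68 and Ctsd were 0.86 and 0.82 at 48 h and 1.11 and 0.85 at 72 h. Those of Lrg1 and Lcn2 were 2.71 and 2.18 at 48 h and 2.14 and 1.73 at 72 h. The acute phase and complement list had 10 higher members (median 0.50) at 48 h and 8 (median 0.60) at 72 h. The macrophage lysosomal list had 8 (median 0.22) and 10 (median 0.32) at these times.

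Of the 66 genes with a lower effect at 48 h than over the other times, 38 were not called at 48 h, 26 were called lower and 2 higher. Heat shock genes made up 9 of them and NRF2 target enzymes 6. Of the heat shock and folding genes 17 of 19 were called higher at 4 h and 16 at 8 h, where 356 and 486 of all 12393 genes were. The effect of Hspa1b was 5.39 at 4 h and -0.15 at 48 h, that of Hspa1a 5.24 and 0.95, and that of Hmox1 4.46 and 0.49. At 72 h the effects of these 3 genes were -0.20, 0.49 and 0.44. The heat shock list had a median of -0.15 at 48 h and -0.13 at 72 h, with 0 called at both times. The NRF2 list had medians of 0.25 and 0.23, with 1 called higher at each time. With only air lungs 1 and 2 as controls the 48 h change of Hspa1a was 1.82 (adjusted p = 0.00421) and that of Hsph1, a chaperone cofactor, 0.01. With only air lungs 3 and 4 they were 0.08 and -1.14 (adjusted p = 0.0315 for Hsph1). The change of Hspa1b was 0.63 and -0.92 in these fits (adjusted p = 0.495 and 0.168 by limma). Of the 17 injured epithelium markers 0 were called higher at 0.5 h, 4 at 1 h, 12 at 8 h, 11 at 24 h, 13 at 48 h and 10 at 72 h. Their medians at these times were 0.11, 0.35, 1.18, 0.88, 0.87 and 0.75. Over all 12393 genes 36, 95, 486, 130, 345 and 267 were called higher at the same times. Of the 28 endothelial markers 7 were called lower at 4 h, 9 at 8 h, 2 at 12 h, 2 at 24 h, 10 at 48 h and 9 at 72 h. Their medians at these times were -0.30, -0.33, -0.36, -0.23, -0.40 and -0.51. Over all 12393 genes 327, 598, 64, 116, 329 and 234 were called lower at these times. No endothelial marker had a 48 h effect that differed from the mean of the other times by limma. At an unadjusted p under 0.05 there were 8, a mark that 1242 of the 12393 genes passed.

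**Figure D5:**
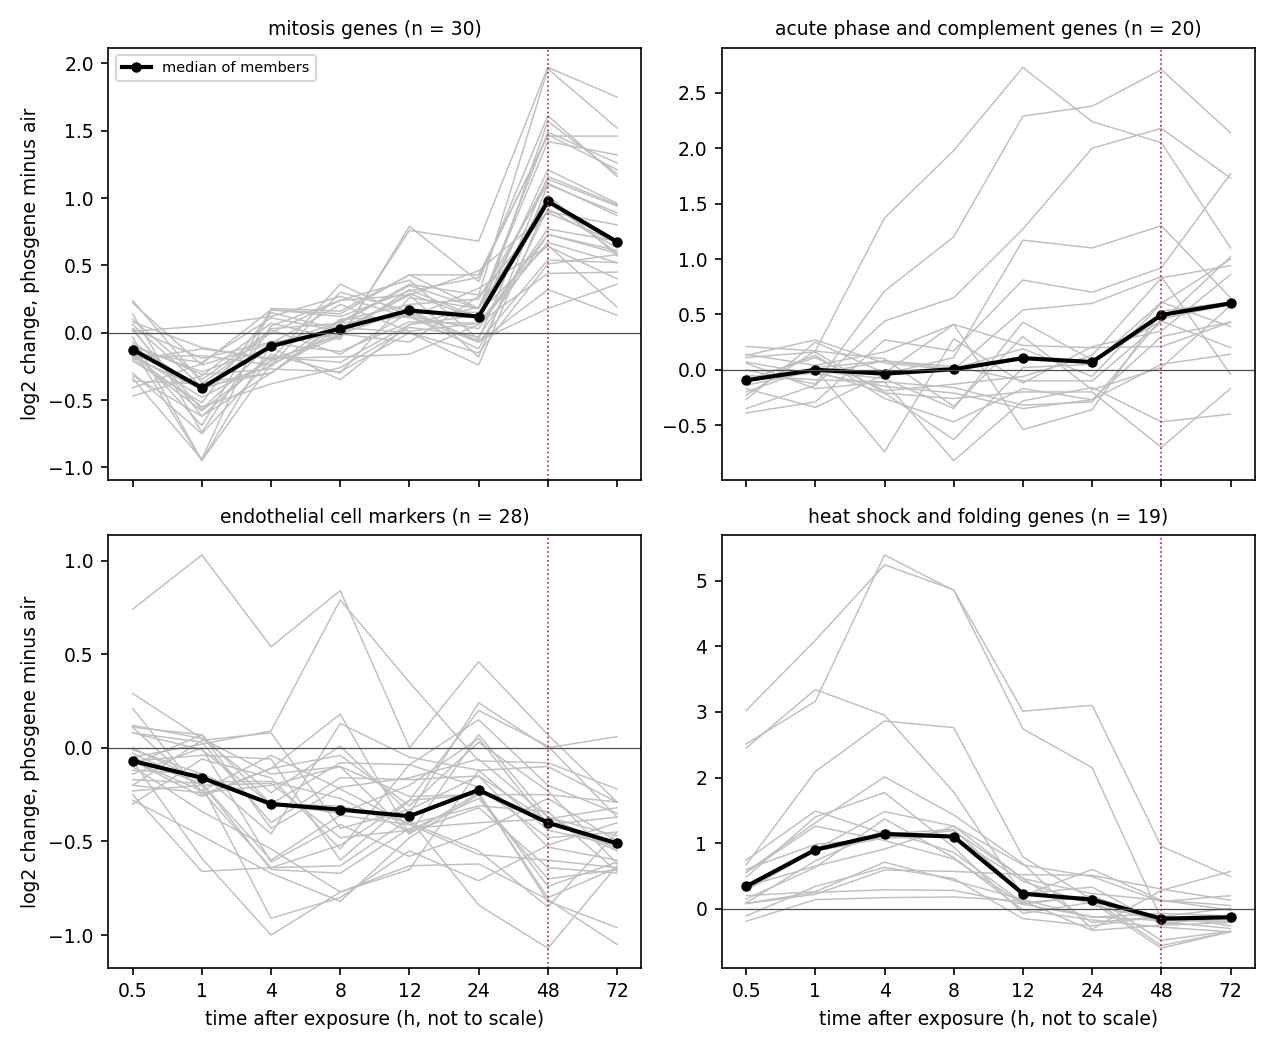
Log2 difference between phosgene and air lungs at the 8 times (in hours, evenly spaced) for each measured member (thin lines) and the median (black) of mitosis, acute phase and complement, endothelial and heat shock genes, with 48 h marked by a dotted line. The median of mitosis genes is 0.12 at 24 h, 0.97 at 48 h and 0.67 at 72 h. That of heat shock genes is 1.14 at 4 h, -0.15 at 48 h and -0.13 at 72 h.

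The air lungs of 48 h were also compared with the 3 untreated lungs, a comparison that shares its air lungs with the one above. There were 28 called genes (0.226%), 15 higher and 13 lower in the air lungs, of which 8 were clock genes, 3 heat shock genes and 6 also among the calls of phosgene against air. Dbp and Arntl, an output and a core activator of the circadian clock, are given although chosen after their values were seen. Dbp measured 46.8, 62.8, 48.0 and 46.2 in air lungs and 399 ± 62.2 (SD, n = 3) in untreated lungs (log2 difference -2.63, SE 0.24, adjusted p by limma 1.07e-09). Arntl measured 174, 232, 192 and 232 in air lungs and 53.2 ± 11.1 (SD, n = 3) in untreated lungs (log2 difference 1.71, SE 0.17, adjusted p by limma 1.57e-08). In Dbp all air lungs were far lower and in Arntl far higher than the untreated mean. Per1, higher in phosgene than in air lungs, was lower in air than in untreated lungs by 1.27 on the log2 scale (adjusted p = 0.00273), and its mean was 214 in both phosgene and untreated lungs. Hspa1b was higher in air than in untreated lungs by 2.24 (adjusted p = 3.74e-04). The time of day of sampling is not given in the labels, and its part in these differences was not tested.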

How the data were processed

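Total RNA of mouse lung was hybridized to MOE430A chips, 2 per numbered lung. The intensity values were deposited by the authors as 1 linear signal per probe set and chip, and the 2% trimmed mean of each chip lies between 150.03 and 150.04. The labels and headers name no program for this step. The other deposited files hold chip settings, per the file headers, from which hybridization days and chip lots were read. From 22690 probe sets, 20380 with 1 gene symbol gave 12393 genes, each by its probe set of highest mean. Intensity plus 16 was put on a log2 scale and the chips of a lung were averaged. All 52 lungs in 17 groups were fitted with limma 3.58.1 in R 4.3.3 (eBayes with a trend), with Benjamini-Hochberg adjustment over all genes and a threshold of 0.05. Tables and figures were made with Python 3.11.15. The fit was tested on simulated data. The number of arrays limits the precision.

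Gene lists (45) and the groups compared were chosen with earlier results of these data known. Named genes are the 12 largest rises and 12 largest falls without overlap of lungs, called members of the lists, the first 2 measured members of a list, and the 6 largest in each direction in each test between times. Sftpc, given as a marker of lung tissue, falls outside this rule, as do Igfbp2 and Dbp. Chip letters of title and description disagree for 12 of the 14 chips, so a letter pairs nothing with certainty. Alternatives covered offsets, scaling, filters, probe sets, controls, left-out lungs, single chips, array weights, days and lots.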

Additional observations from a re-analysis of the deposited data

Results flagged for a closer look

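In 6 of the 99 genes examined, 1 air lung of 48 h stood apart from the other 3, with a gap to the nearest lung, as a share of the whole range and both on the log2 scale of intensity plus 16, above Dixon's 95% critical value. They were Retnla in air lung 3, at 1825 intensity units, with a gap of 0.903 of the group's range, Scube2 in air lung 1, at 419 intensity units, with a gap of 0.843 of the group's range. Others were Mad2l1 in air lung 2, at 31.1 intensity units, with a gap of 0.944 of the group's range, Mt1 in air lung 2, at 324 intensity units, with a gap of 0.841 of the group's range. The last were Dbp in air lung 2, at 62.8 intensity units, with a gap of 0.874 of the group's range and Krt7 in air lung 1, at 733 intensity units, with a gap of 0.905 of the group's range. Chance gives such a gap in about 1 in 20 groups.

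The phosgene effect on the log2 scale differed between 48 h and 24 h, as a difference of effects, in Aurka (1.22), Bub1b (1.48), Melk (1.44) and Art3 (-1.43).

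The effect at 48 h exceeded the mean effect of the other 7 times, by the log2 difference in parentheses, in Lrg1 (1.48), Timp1 (1.20), Arg1 (1.76), Lcn2 (1.38), Clu (1.20), Cdk1 (1.69), Birc5 (1.81), Rrm2 (1.57), Ccnb2 (1.19), Cdc20 (1.29), Aurka (1.07), Aurkb (0.71), Bub1b (1.43), Mad2l1 (1.38), Mki67 (1.27), Melk (1.34), Cep55 (1.44), Mcm5 (1.06), Uhrf1 (1.20), Tk1 (1.25), Fst (1.14), Orm1 (0.95), C3ar1 (0.73), C1qc (0.52), Ctsd (0.67), Cd68 (0.77), Ccl9 (1.05) and Msr1 (0.70). It lay below that mean in Slc4a1 (-1.29), Acaa1b (-0.91), Pcolce2 (-0.69), Fabp1 (-0.88), Art3 (-0.97), Fmo1 (-0.60), Npnt (-0.63), Hspa1a (-2.45), Hspa1b (-3.09), Hmox1 (-2.04), Gclc (-1.08), Hsph1 (-1.84), Dnajb1 (-1.48) and Atf3 (-1.45). Of the genes above that mean, Clu, C3ar1, C1qc, Ccl9, Ctsd and Cd68 had a larger effect at 72 h than at 48 h. Lrg1, Lcn2 and Arg1, among others, had a smaller one. Among genes below that mean, the effect of Acaa1b was -1.05 at 24 h, -1.29 at 48 h and -1.06 at 72 h. That of Fabp1 was -0.88, -1.07 and -0.14 at these times. At 48 h and 72 h the effects were -0.94 and -0.86 for Art3 and -1.03 and -0.82 for Fmo1. They were 0.96 and 0.91 for Gclc and 1.24 and 1.23 for Atf3. Air lungs 3 and 4 of 48 h were the brightest air lungs for Hspa1b, Hspa1a, Hsph1 and Dnajb1.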

How the results depend on the processing

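The counts of called genes moved with the processing while calls seldom changed direction. Of 170 named genes called at 48 h, 53 kept their call under each of 26 alternatives. The filter against dim genes kept 150 of the 170. A gene with 1 probe set kept that probe set in the next brightest setting, which so could not change its values. That setting left 133 of the calls the same, weakened 32 and reversed 5. The next brightest probe set turned the change of Acta2 to -0.03, Angptl4 to -0.20, Bub1 to -0.13, Myl4 to 0.07 and Zbtb46 to 0.09. With untreated lungs as controls 203 of the 345 higher and 194 of the 329 lower genes were called again. The changes of Arntl and Hspa1b, neither called in the comparison with air, were 1.43 and 2.09 with these controls.

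The 345 higher and 329 lower genes became 569 and 575 with the air lungs of 24, 48 and 72 h as controls, 214 and 139 with only air lungs 1 and 2, 197 and 179 with chip A alone and 213 and 202 with chip B alone. Higher genes numbered 214 with only air lungs 3 and 4. Lower genes numbered 194 with only the 7 lungs fitted, 640 with array weights, 516 with hybridization day as a term and 536 with chip lot as a term. With single chips, the lung as a random block and the chip letter as a replicate block they numbered 598, or 600 with the title's letter. Leaving out 1 lung gave 210 to 312 higher and 169 to 297 lower genes, with the lowest counts without phosgene lungs 1 and 3.

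The 4 genes that differed between 48 h and 24 h became 7 with an offset of 64, 2 without dim genes, 2 with only air lungs 1 and 2, 1 with chip A, 0 with chip B, 15 with array weights, 2 with lot 1 alone, 37 and 39 with the replicate block by either letter, 29 with day and 39 with lot as a term, and 2 to 6 without 1 lung (2 without air lung 4 or phosgene lung 3). The 164 genes that differed from the other 7 times became 90 and 79 with air lungs 1 and 2 or 3 and 4 only, 104 and 69 with chip A or B, 276 with array weights, 95 with lot 1 alone, 338 and 327 with the replicate block, 314 and 322 with day or lot as a term, and 63 to 139 without 1 lung (89 without phosgene lung 1, 63 without phosgene lung 3). The cause was not tested. The lot 1 and title letter settings were chosen after seeing the data. Between 48 h and 72 h each alternative gave 0 genes.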
